A study of Mus musculus with 64 samples.

Results

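The skeletal muscle isoforms of the sarcomere and of the calcium store were followed in mouse hearts with and without a mutant cardiac troponin T. They are 6 genes of the 16913 in the gene table: Myl1, Mybpc2, Acta1, Casq1, Tnni2 and Atp2a1. They were picked on an earlier reading of these data, with Myl1, Mybpc2, Acta1 and Casq1 taken as higher in transgenic hearts and Tnni2 and Atp2a1 as not. By the estimates below Tnni2 too was above nTG in TG hearts, and Acta1 was close to it in trained males. Because genotype chose the genes, the differences between genotypes are given here as a description, with no test. Hearts came from C57BL/6J mice, either non-transgenic (nTG) or carrying the cTnT-delta160E transgene (TG), a troponin T variant of hypertrophic cardiomyopathy. They were kept sedentary or given high-intensity interval training (HIIT) on a treadmill for 6 weeks, with 3 sessions per week of 31 minutes, each holding 4 fast intervals (85% of the mean speed the group reached in a graded test) and 4 slow ones (50%). The 64 libraries were made from total RNA after removal of ribosomal RNA. The nTG hearts were from 7 sedentary and 8 trained males and from 8 sedentary and 10 trained females. The TG hearts were from 9 sedentary and 8 trained males and from 8 sedentary and 6 trained females. These numbers follow the labels, and the series text gives a narrower range per group. The ages of the mice, the promoter that drives the transgene and the parts of the heart taken are not given in the sources used here.

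A muscle cell builds its contractile filaments from protein families in which one gene serves the heart and a sister gene serves skeletal muscle. Acta1 encodes skeletal alpha-actin of the thin filament, Myl1 a fast skeletal essential light chain of myosin, Mybpc2 the fast myosin-binding protein C of the thick filament, and Tnni2 the fast skeletal inhibitory subunit of troponin. Casq1 encodes the calcium-binding protein of the skeletal sarcoplasmic reticulum, and Atp2a1 the pump (SERCA1) that refills it. The cardiac counterparts are Actc1, Myl3, Mybpc3, Tnni3, Casq2 and Atp2a2. Skeletal alpha-actin is made in the fetal heart, declines after birth in rodents and is a classic marker of cardiac overload, together with the slow myosin gene Myh7.

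Promoters of the 4 genes picked as higher in TG hearts are shown, because the levels of some of them moved together from heart to heart, as given further on. Each run is the 250 bases before the gene's start in RefSeq (GRCm38.p6), written along the gene's own minus strand. They lie at chr1:66945057-66945306 for Myl1, chr7:44524670-44524919 for Mybpc2, chr8:123894776-123895025 for Acta1 and chr1:172219896-172220145 for Casq1. The run of Myl1 lies inside the gene's GENCODE M21 span, which starts further upstream than the RefSeq gene, and the other 3 lie outside theirs. Capitals mark matches on either strand to the E-box, CANNTG, the site of factors such as MyoD, to the MCAT element of TEAD factors, which is CATTCC, to the TATA element, searched as TATAAA, and to the CArG box, the site of the factor SRF.
Myl1: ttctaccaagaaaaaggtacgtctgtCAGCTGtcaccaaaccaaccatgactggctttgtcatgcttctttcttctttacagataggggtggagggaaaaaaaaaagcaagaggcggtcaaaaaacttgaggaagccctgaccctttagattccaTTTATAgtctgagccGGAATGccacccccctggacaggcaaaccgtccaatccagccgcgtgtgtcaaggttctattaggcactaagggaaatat
Mybpc2: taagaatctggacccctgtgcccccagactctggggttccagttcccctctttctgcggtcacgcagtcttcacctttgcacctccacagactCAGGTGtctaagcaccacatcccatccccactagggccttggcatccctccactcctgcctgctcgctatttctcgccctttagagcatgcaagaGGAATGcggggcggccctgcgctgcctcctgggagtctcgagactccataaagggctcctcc
Acta1: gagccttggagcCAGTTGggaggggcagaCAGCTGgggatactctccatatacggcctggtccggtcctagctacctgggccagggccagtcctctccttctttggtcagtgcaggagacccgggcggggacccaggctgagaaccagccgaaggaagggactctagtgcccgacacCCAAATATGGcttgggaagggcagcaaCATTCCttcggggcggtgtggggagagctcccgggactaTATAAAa
Casq1: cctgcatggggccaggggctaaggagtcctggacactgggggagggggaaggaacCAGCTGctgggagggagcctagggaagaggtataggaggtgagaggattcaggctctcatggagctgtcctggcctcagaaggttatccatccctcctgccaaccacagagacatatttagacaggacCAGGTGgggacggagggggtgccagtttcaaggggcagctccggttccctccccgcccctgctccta
Acta1 had 2 E-boxes, 1 MCAT, 1 TATA and 1 CArG box, and no match overlapped another in these promoters. Myl1 had 1 E-box, 1 MCAT and 1 TATA, and Mybpc2 had 1 E-box and 1 MCAT. The MCAT and TATA matches of Myl1 and the MCAT of Mybpc2 are on the opposite strand, so the reverse complement is printed. Casq1 had 2 E-boxes, and the promoter of Atp2a1 had 1 E-box. No match to the MEF2 site was found in these 5 promoters. Among 32851 mouse promoters of this length, 66.2% held an E-box, 12.6% an MCAT, 12.4% a TATA, 2.92% a MEF2 site and 1.47% a CArG box. A match is a stretch of letters, not a measured binding site.

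The columns of the gene table are out of order, and each library was given its gene column through the lncRNA table. All 64 lncRNA columns had a different best gene column, with r from 0.598 to 0.863 across 388 transcripts against at most 0.403 for the next best. With this assignment 0 of 64 libraries contradicted the labelled sex or genotype, against 45 with the columns taken by name. That check rests on sex-linked genes and on the gene of cardiac troponin T, so it cannot check the training label. Tnnt2, the gene of cardiac troponin T, was at 2665 to 3428 CPM (counts scaled to 1000000 per library) in nTG and at 6903 to 12001 CPM in TG hearts. Library totals ran from 34574813 to 67068562 counts, with a median of 48001577. The 10 cardiomyocyte markers summed to 120300 to 154600 CPM, which here and below includes the TMM scaling between libraries. Of 10 markers of skeletal muscle fibres, only Tnni2 and Atp2a1 have a row in the table, and of 5 markers of satellite cells and myoblasts none has. The other 8 fibre markers, among them Myh4 and Mylpf, were not analysed here, and the smallest total of any row was 671 counts over the 64 libraries.

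Levels of the 6 genes differed widely. Per kilobase of exon, the mean over all libraries was 181.9 CPM for Acta1, 11.5 for Myl1, 10.9 for Mybpc2, 2.88 for Casq1, 0.439 for Tnni2 and 0.256 for Atp2a1. On the same scale Actc1 was at 3676, Atp2a2 at 2941, Tnni3 at 1333, Myl3 at 1238, Mybpc3 at 917.5 and Casq2 at 176.2. None of the 6 genes was at 0 in any library, nTG hearts included. The lowest counts were 3096 for Acta1, 728 for Mybpc2, 244 for Myl1, 52 for Casq1, 14 for Atp2a1 and 7 for Tnni2. By these counts Myl1, Mybpc2, Acta1 and Casq1 were not off in nTG hearts. For Tnni2 and Atp2a1 the lowest counts are too few to tell whether the gene was on. Differences between genotypes are described gene by gene below, and Atp2a1 had no common direction.

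Myl1 (ENSMUSG00000061816, chr1:66924295-66945404 in GRCm38) separated the genotypes in every training state and sex. In males its level was 6.42 to 12.3 CPM in sedentary nTG (median 10.3, n = 7) and 27.0 to 60.4 CPM in sedentary TG hearts (median 41.6, n = 9). Trained nTG males were at 8.21 to 14.96 CPM (median 9.74, n = 8) and trained TG males at 26.7 to 83.7 CPM (median 34.3, n = 8). In females it was 5.42 to 22.7 CPM in sedentary nTG (median 10.99, n = 8) and 30.7 to 42.9 CPM in sedentary TG hearts (median 34.4, n = 8). Trained nTG females were at 7.67 to 16.1 CPM (median 9.81, n = 10) and trained TG females at 25.0 to 45.7 CPM (median 38.2, n = 6). All 31 TG libraries were above all 33 nTG libraries. The log2 fold change of TG over nTG was 1.97 ± 0.21 (SE) in males kept sedentary and 1.90 ± 0.20 in those trained. For females it was 1.63 ± 0.20 when sedentary and 1.79 ± 0.20 when trained. Myl1 was chosen on this contrast, so nothing is read from its separation. In the order sedentary and trained males, then sedentary and trained females, edgeR's quasi-likelihood test called 9.39%, 5.65%, 1.58% and 5.37% of the 16913 genes higher in TG and 11.2%, 8.31%, 2.78% and 9.43% lower, at a Benjamini-Hochberg adjusted p under 0.05. In bulk tissue, fewer cells of a type and less RNA per cell cannot be told apart. Of the 50-base words in its transcripts, 11.7% also occur in the pseudogene Mylf-ps, so part of its reads could be split by the counting.

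**Figure D1:**
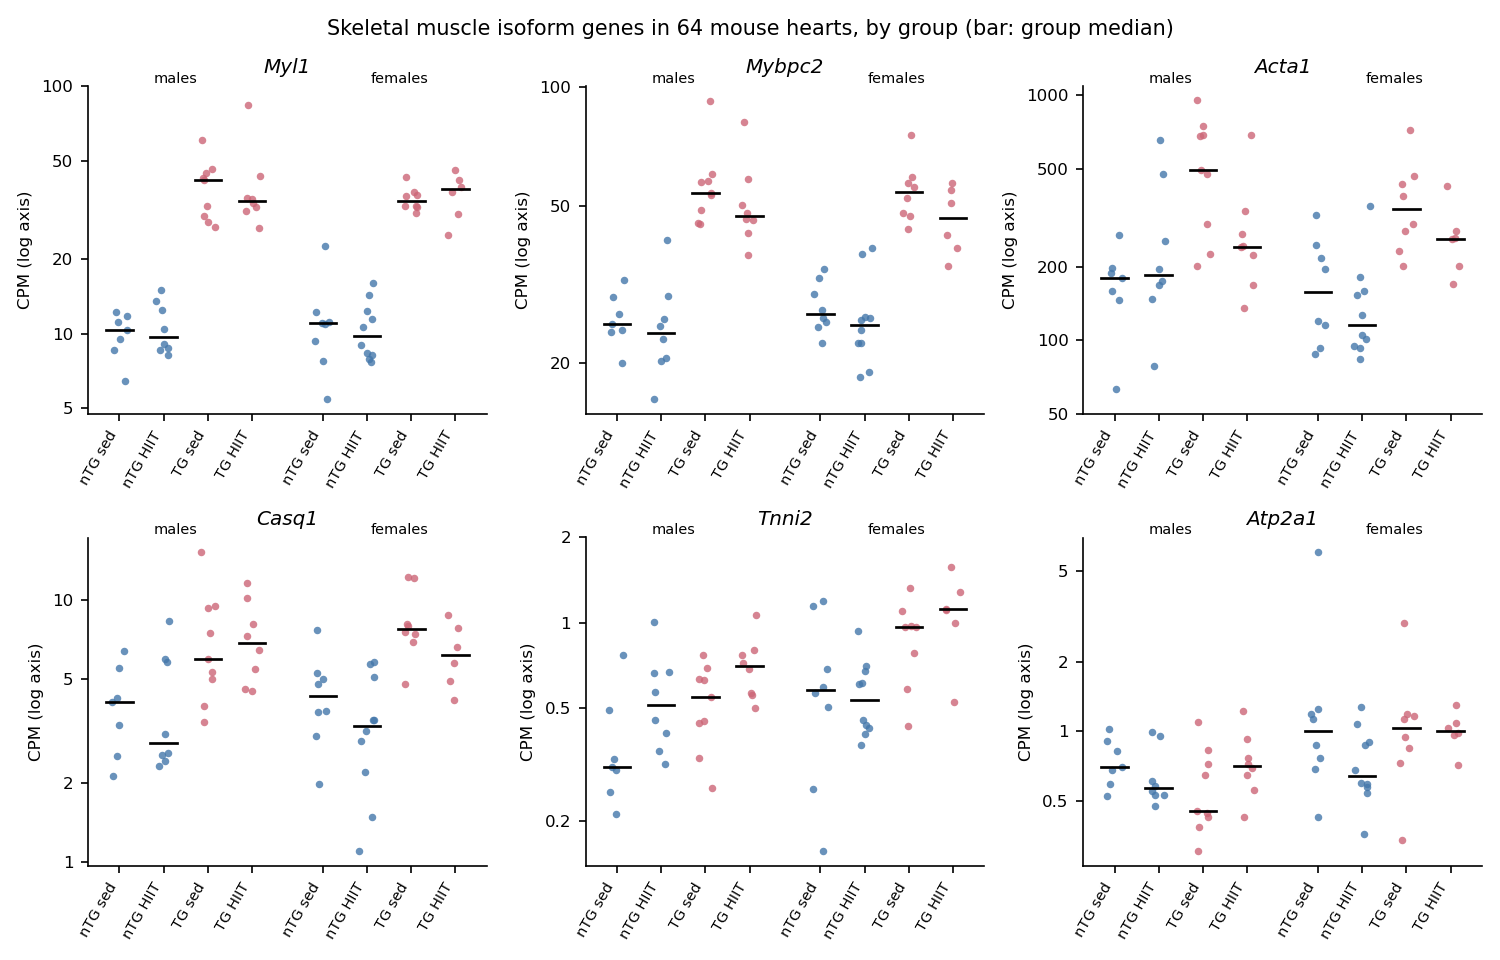
Each panel shows 1 gene, with 1 point per library in the 8 groups (blue nTG, red TG; sed, sedentary) and the level in CPM on a log axis; the bar is the group median. The 31 TG points of Myl1 all lie above the 33 nTG points, whereas the points of Atp2a1 overlap in every training state and sex.

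Mybpc2 (ENSMUSG00000038670, chr7:44501699-44524656), the fast thick-filament protein, showed the next clearest separation. In sedentary males it was at 20.1 to 32.5 CPM in nTG (median 25.2) and at 44.9 to 92.3 CPM in TG hearts (median 54.0). In sedentary females it was at 22.5 to 34.7 CPM in nTG (median 26.7) and at 43.9 to 75.9 CPM in TG hearts (median 54.2). Genotypes did not overlap in sedentary mice of either sex. In trained males the ranges met, with 16.2 to 40.9 CPM in nTG (median 23.9) and 37.5 to 81.7 CPM in TG hearts (median 47.1), and 7 of 8 TG libraries lay above all nTG libraries. In trained females 5 of 6 TG libraries lay above all nTG libraries, with 18.5 to 39.1 CPM in nTG (median 25.0) and 35.2 to 57.3 CPM in TG hearts (median 46.6). The log2 fold changes were 1.14 ± 0.16 and 1.03 ± 0.15 in sedentary and trained males, and 0.98 ± 0.15 and 0.83 ± 0.15 in sedentary and trained females (SE).

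Acta1 (ENSMUSG00000031972, chr8:123891769-123894751), skeletal alpha-actin, was the most abundant of the 6. In sedentary males it ran from 63.3 to 267.7 CPM in nTG (median 179.1) and from 200.8 to 951.0 CPM in TG hearts (median 493.8), and 7 of 9 TG libraries were above all nTG libraries. In sedentary females it ran from 88.2 to 324.1 CPM in nTG (median 158.0) and from 200.3 to 717.2 CPM in TG hearts (median 343.3), with 4 of 8 TG libraries above all nTG libraries. In trained females it was 83.7 to 352.5 CPM in nTG (median 115.8) and 170.4 to 424.1 CPM in TG hearts (median 260.2). Trained males were the exception: nTG hearts spanned 78.5 to 658.1 CPM (median 184.6) and TG hearts 135.3 to 688.8 CPM (median 240.9), and the groups covered nearly the same range. The log2 fold change of TG over nTG was 1.63 ± 0.36 in sedentary males but 0.10 ± 0.34 in trained males, and in females 1.11 ± 0.35 when sedentary and 0.87 ± 0.35 when trained (SE). Leaving out 1 library moved the value in trained males between -0.22, without trained TG male replicate 4, and 0.43, without trained nTG male replicate 2. It was -0.04 without trained nTG male replicate 8, so its sign rests on single hearts. By median, the order of the 8 groups began with sedentary TG males and sedentary TG females, went on with trained TG females and trained TG males, and ended with the 4 nTG groups, with overlapping ranges between neighbours.

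Casq1 (ENSMUSG00000007122, chr1:172209894-172219868), the skeletal calsequestrin, was low and, by median, higher in the TG group of each training state and sex, with overlapping ranges throughout. Sedentary males had 2.13 to 6.43 CPM in nTG (median 4.07) and 3.42 to 15.3 CPM in TG hearts (median 5.98), and trained males 2.32 to 8.35 (median 2.85) and 4.49 to 11.6 CPM (median 6.88). Sedentary females had 1.99 to 7.73 CPM in nTG (median 4.30) and 4.78 to 12.3 CPM in TG hearts (median 7.77), and trained females 1.11 to 5.82 (median 3.32) and 4.15 to 8.76 CPM (median 6.18). Over all hearts, 8 of 31 TG libraries were above every nTG library, and the ratio of the mean CPM was 1.86. The log2 fold changes were close to each other, at 0.83 ± 0.30 and 0.81 ± 0.29 in sedentary and trained males and at 0.92 ± 0.29 and 0.88 ± 0.30 in sedentary and trained females (SE).

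Tnni2 (ENSMUSG00000031097, chr7:142441808-142444410), the fast troponin I, was near the lower end of what these libraries can measure, with 7 to 96 counts per library. Its group medians lay between 0.310 CPM in sedentary nTG males and 1.12 CPM in trained TG females, and its highest library reached 1.57 CPM. The log2 fold change of TG over nTG was 0.48 ± 0.29 and 0.34 ± 0.28 in sedentary and trained males, and 0.48 ± 0.27 and 0.97 ± 0.27 in sedentary and trained females (SE). The first of these was 0.75 without sedentary nTG male replicate 6, and the value in trained males was 0.52 without trained nTG male replicate 3. In trained females 5 of 6 TG libraries were above all nTG libraries, whereas in each of the other 3 comparisons only 1 was.

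Atp2a1 (ENSMUSG00000030730, chr7:126445858-126463108), the fast skeletal calcium pump, had 14 to 290 counts per library and no common direction between genotypes. Its log2 fold change of TG over nTG was -0.37 ± 0.35 in sedentary males, -0.41 ± 0.32 in sedentary females, 0.18 ± 0.35 in trained males and 0.44 ± 0.34 in trained females (SE). Group medians ran from 0.451 CPM in sedentary TG males to 1.04 CPM in sedentary TG females. A single heart, sedentary nTG female replicate 4, was at 6.02 CPM, against 0.424 to 1.25 CPM in the other libraries of its group, and without it the value in sedentary females was 0.36. Sedentary nTG female replicate 4 also held the highest summed fibroblast and atrial markers of its group, at 1418 and 303.3 CPM, and the part of these in its Atp2a1 value was not tested. Without sedentary TG female replicate 4 the value in sedentary females was -0.77, and that in trained males was 0.05 without trained TG male replicate 5 and 0.30 without trained nTG male replicate 1. Atp2a1 overlaps Rabep2 on the opposite strand, which was at 9.11 CPM, and the sources used here do not state whether the counting used strand.

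**Figure D2:**
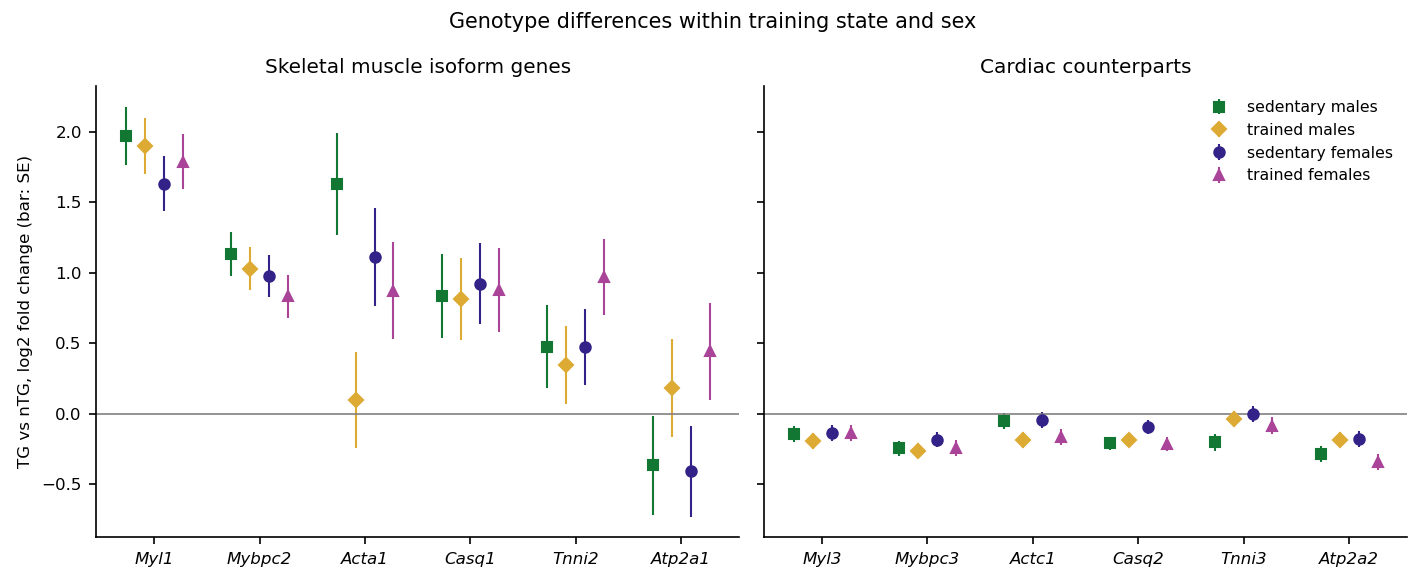
Points are log2 fold changes of TG over nTG hearts from edgeR, with SE bars, in sedentary and trained males and females, for the 6 skeletal isoform genes (left) and their cardiac counterparts (right). Myl1 lies between 1.63 and 1.97 in the 4 comparisons, Acta1 drops to 0.10 in trained males, and the counterparts lie between -0.34 and 0.00.

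The cardiac counterparts were not among the genes picked, but were listed with earlier results of these data known. Their p-values are thus not free of that knowledge. The counterparts were level with or slightly below nTG in TG hearts. Of the 12 cardiac isoform genes listed, edgeR called 7 lower and 1 higher in sedentary males and 6 lower in trained males, at adjusted p under 0.05. It called 3 lower in sedentary and 7 lower in trained females. Of all genes, 11.2% were called lower and 9.39% higher in sedentary males, 8.31% lower in trained males, and 2.78% and 9.43% lower in females without and with training. Their median log2 fold change was -0.22, -0.18, -0.10 and -0.19 in the same order, where the median of all genes was between -0.005 and 0.011. Mybpc3, the cardiac myosin-binding protein C, was lower in all 4 comparisons, by -0.25 ± 0.05 (SE, adjusted p 0.000519), -0.26 ± 0.05 (0.000374), -0.19 ± 0.05 (0.03) and -0.25 ± 0.06 (0.00137). Atp2a2, the cardiac calcium pump SERCA2, was lower by -0.29 ± 0.06 and -0.18 ± 0.06 in sedentary and trained males (edgeR adjusted p 0.000133 and 0.019) and by -0.18 ± 0.06 and -0.34 ± 0.06 in sedentary and trained females (0.0445 and 2.72e-05). In sedentary females the call of Atp2a2 did not hold in 14 of 16 fits without 1 library, nor that of Mybpc3 in 6 of 16. Casq2, the cardiac calsequestrin, was lower in sedentary males, trained males and trained females, by -0.21 ± 0.05, -0.19 ± 0.05 and -0.21 ± 0.05 (edgeR adjusted p 0.000806, 0.00472 and 0.00179). Actc1, the cardiac actin, passed in trained males at -0.19 ± 0.06 (adjusted p 0.0181; not called without trained TG male replicate 2 or trained nTG male replicate 5) and, less firmly, in trained females at -0.16 ± 0.06 (0.0469; not called in 10 of 16 fits without 1 library). Myl3 was lower in trained males at -0.19 ± 0.06 (edgeR adjusted p 0.0134). Tnnc1, the calcium-binding troponin subunit, was lower in all 4 comparisons, by -0.14 to -0.19, but in sedentary females the call held in only 3 of 16 fits without 1 library. Myh6, the main myosin of the adult mouse heart, was lower in sedentary males by -0.23 ± 0.05 (edgeR adjusted p 0.000801) and was also called lower in trained females. Tnni3, the cardiac troponin I, was lower in sedentary males by -0.20 ± 0.06 (edgeR adjusted p 0.00932) and was not called in the other comparisons of genotypes. The 1 gene called higher, Myh7, is the slow myosin that is also counted among the stress genes.

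As a share of each isoform pair per kilobase, the skeletal member stayed small in both genotypes. Acta1 made up 2.90% ± 1.11 (SD, n = 7) of Acta1 plus Actc1 in sedentary nTG males and 8.37% ± 3.41 (n = 9) in sedentary TG males, and 4.01% ± 2.86 (n = 8) and 4.78% ± 2.44 (n = 8) in trained nTG and TG males. In females the share was 3.09% ± 1.27 and 6.64% ± 2.40 when sedentary and 2.34% ± 1.09 and 4.78% ± 1.49 when trained. Myl1 made up 0.351% ± 0.0896 of Myl1 plus Myl3 in sedentary nTG males and 1.49% ± 0.411 in sedentary TG males. The Mybpc2 share was 0.695% ± 0.14 and 1.77% ± 0.395 in the same hearts, and that of Casq1 1.08% ± 0.35 and 2.24% ± 1.10. Tnni2 reached at most 0.0733% of its pair with Tnni3, and Atp2a1 at most 0.0609% of its pair with Atp2a2. These are shares of counts per exon length and do not measure protein.

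**Figure D3:**
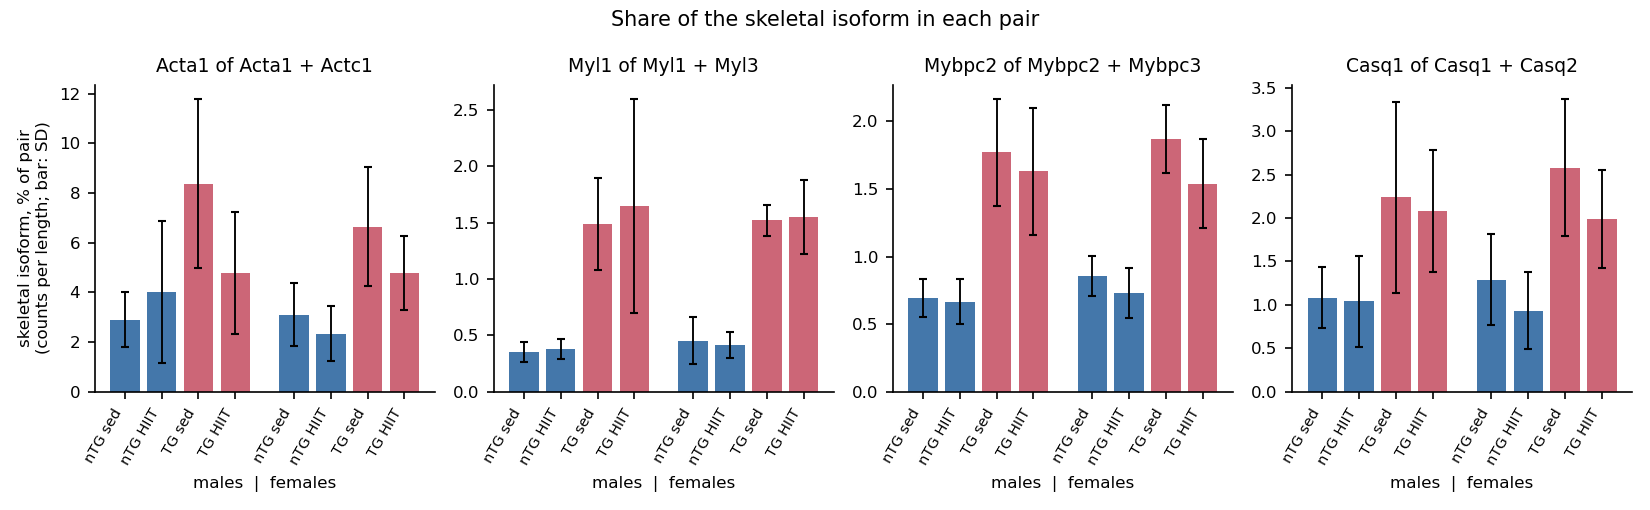
Bars are the mean share of the skeletal isoform in its pair with the cardiac isoform (percent of counts per exon length, SD bars), for 4 pairs in the 8 groups (blue nTG, red TG; males left, females right). The Acta1 share is 8.37% in sedentary TG males and 4.78% in trained TG males, while the Myl1 share in TG hearts is between 1.49% and 1.65%.

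The genes were chosen on the comparison of genotypes, not on that of trained with sedentary hearts. The same libraries enter both comparisons, so the tests of training are not free of the choice. In nTG males, TG males, nTG females and TG females, edgeR called 0 of the 6 genes, where 0%, 18.0%, 0.148% and 0% of the 16913 genes passed. At an unadjusted p under 0.05, 999, 5401, 2406 and 606 of all genes passed in the same order, and of the 6 genes only Acta1 in TG males and Atp2a1 in nTG females. In TG males 10.3% of all genes were called higher after training and 7.60% lower. DESeq2 called none of those to which it gave an adjusted p, which it did not for Tnni2 and Atp2a1 in TG males or for any but Acta1 in nTG females. limma voom, run with sample quality weights that give outlying libraries less influence, called Acta1 in TG males, where it called 4541 of all genes against 3036 by edgeR.

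Acta1 in TG males came closest. Its median was 493.8 CPM in sedentary and 240.9 CPM in trained hearts, and 7 of the 8 trained libraries were at or under 336.8 CPM, within the range of the sedentary ones or below it. The log2 fold change of trained over sedentary was -0.88 ± 0.34 (SE, edgeR adjusted p 0.0573; DESeq2 0.0577, limma voom with these weights 0.0107). The trained heart at 688.8 CPM, replicate 4, decided the call: without it the value was -1.21 (edgeR adjusted p 0.00738). Leaving out sedentary replicate 5, 7 or 8 also gave a call, with adjusted p 0.0491, 0.0311 and 0.0343, and over all 17 such fits the adjusted p was 0.00738 to 0.126. Replicate 4 also had the highest summed fibroblast and atrial markers of its group, at 1713 and 711.2 CPM, and their part in its Acta1 level was not tested. In nTG males the value was 0.65 ± 0.36 (adjusted p 0.86), in nTG females -0.27 ± 0.32 (0.762) and in TG females -0.51 ± 0.37 (1). Single libraries moved these values too: that of nTG males was 0.32 without trained replicate 2, that of nTG females -0.09 without sedentary replicate 1 and -0.52 without trained replicate 2, and that of TG females -0.31 without sedentary replicate 3.

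Whether training acted differently in the genotypes was tested as an interaction. It too uses the libraries on which the genes were chosen and is not free of that choice. In males Acta1 had a genotype by training term of -1.53 ± 0.49 (SE), with an unadjusted p of 0.00269 and an edgeR adjusted p of 0.175 over all genes. It thus did not pass, and over 32 fits without 1 library the adjusted p was 0.0578 to 0.299, the lowest without trained TG male replicate 4. DESeq2 gave 0.0927 and limma voom 0.0667. In females the term was -0.24 ± 0.49 (adjusted p 0.954), and between -0.42 and 0.01 without 1 library. No other gene of the 6 had an unadjusted p under 0.05 for this term in either sex, and the terms of Myl1, Mybpc2 and Casq1 were between -0.14 and 0.15. Of all genes, edgeR called 0% in males, where 2503 had an unadjusted p under 0.05, and 0% in females, where 1093 had.

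Myl1, Mybpc2 and Casq1 showed training differences between -0.40 and 0.11 on the log2 scale. For Myl1 the estimates were 0.11 ± 0.21 in nTG males, 0.03 ± 0.18 in TG males, -0.10 ± 0.19 in nTG females and 0.06 ± 0.20 in TG females (SE, edgeR adjusted p at least 0.866). For Mybpc2 they were -0.05 ± 0.16, -0.15 ± 0.15, -0.09 ± 0.14 and -0.24 ± 0.16 (adjusted p at least 0.505). For Casq1 they were 0.03 ± 0.30, 0.01 ± 0.28, -0.36 ± 0.28 and -0.40 ± 0.31 (adjusted p at least 0.594). Without 1 library these values lay between -0.22 and 0.16 for Myl1, -0.30 and 0.02 for Mybpc2 and -0.52 and 0.22 for Casq1. With standard errors of this size, smaller differences of either sign could not be detected. Atp2a1 in nTG females was at -1.05 ± 0.31 (adjusted p 0.147), a value that went to -0.29 when sedentary nTG female replicate 4 was left out.

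**Figure D4:**
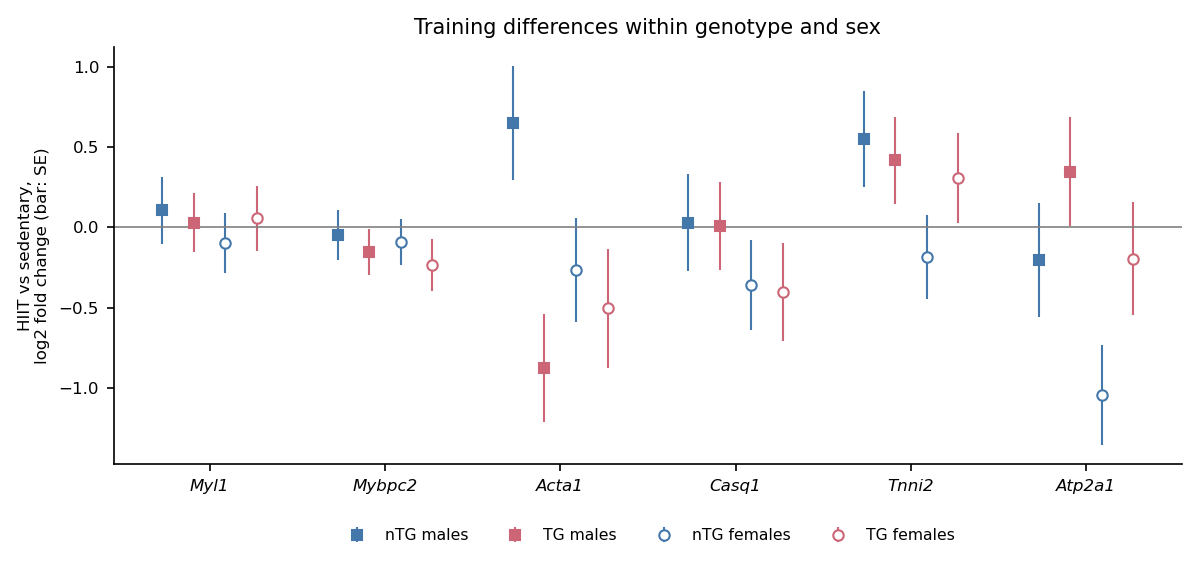
Points are log2 fold changes of trained over sedentary hearts from edgeR, with SE bars, for the 6 genes in nTG (blue) and TG (red) males (filled squares) and females (open circles). Acta1 is at 0.65 in nTG males and at -0.88 in TG males, and no point passed the threshold of adjusted p 0.05.

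The ratio of the skeletal to the cardiac isoform within each library does not depend on how libraries are scaled. Over the 6 ratios in both genotypes and sexes, 0 of 24 two-sided exact permutation tests passed after Benjamini-Hochberg adjustment. The lowest p was that of Acta1 to Actc1 in TG males, where the mean log2 ratio was -3.65 ± 0.72 (SD, n = 9) in sedentary and -4.51 ± 0.64 (n = 8) in trained hearts, a difference of -0.86 (exact p 0.0236, adjusted 0.359). In TG females Mybpc2 to Mybpc3 was -5.93 ± 0.20 (n = 8) in sedentary and -6.23 ± 0.32 (n = 6) in trained hearts (exact p 0.0483, adjusted 0.359).

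Sex was tested within each genotype and training state. None of the 6 genes was called between females and males by edgeR, where 2.22% of all genes passed in sedentary nTG (2571 at an unadjusted p under 0.05), 2.40% in trained nTG (2666), 3.83% in sedentary TG (3098) and 2.29% in trained TG hearts (3140). Without 1 library, 204 to 513, 290 to 457, 284 to 835 and 140 to 1082 of all genes were called in the same order. Atp2a1 was higher in females by 1.03 ± 0.34 in sedentary nTG (adjusted p 0.0953) and by 0.99 ± 0.33 in sedentary TG hearts (0.0788; called by DESeq2 at 0.0493). Tnni2 was higher in females by 0.75 ± 0.30 in sedentary nTG (adjusted p 0.18), 0.75 ± 0.27 in sedentary TG (0.0984) and 0.64 ± 0.28 in trained TG hearts (0.203). Single libraries decided on which side of the threshold Atp2a1 fell, with an adjusted p of 0.0423 without sedentary nTG female replicate 7 and 0.0392 without sedentary TG male replicate 8. The difference fell to 0.27 in sedentary nTG (adjusted p 0.733) and to 0.63 in sedentary TG hearts (0.259) when female replicate 4 of the group was left out. Acta1 was lower in trained nTG females than males by -0.89 ± 0.32 (adjusted p 0.13). The value was -1.14 without trained nTG female replicate 2 (adjusted p 0.0354) and -0.56 without trained nTG male replicate 2 (0.424). For the differences in the genotype effect and in the training effect between the sexes, edgeR called 0 of the 6 genes. It called 0% of all genes for the genotype effect in sedentary (1471 at an unadjusted p under 0.05) and trained mice (910), and for the training effect in nTG (1077) and TG mice (3063). Without 1 library it called 0 to 904 of all genes for the training effect in TG mice. For Myl1 the genotype effect differed between sexes by -0.34 ± 0.28 in sedentary and -0.11 ± 0.28 in trained mice (adjusted p 0.753 and 0.976). Without 1 library these values lay between -0.44 and -0.12 in sedentary and between -0.20 and 0.14 in trained mice.

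Hearts of the same group differed from each other, and some of the genes varied together. After the group means were removed, Mybpc2 and Casq1 had a Pearson's r of 0.565 and a Spearman's rho of 0.579 over 64 libraries (permutation p 3e-05 for both, adjusted 0.00045 over 15 pairs), and r was 0.508 without the 2 libraries farthest from the median of Mybpc2. Mybpc2 and Acta1 had an r of 0.494 and rho of 0.433 (permutation p 0.00012 and 0.00063, adjusted 0.0009 and 0.00472; r 0.428 without 2 libraries). Myl1 and Acta1 had an r of 0.424 and rho of 0.378 (permutation p 0.00114 and 0.00447, adjusted 0.0057 and 0.0223; r 0.306 without 2 libraries). The other 12 pairs did not pass, among them Acta1 and Casq1 with an r of 0.037 (permutation p 0.791, adjusted 0.867), although both varied with Mybpc2. Tnni2 and Atp2a1 passed with none of the other genes and had an r of 0.259 with each other (permutation p 0.119, adjusted 0.223).

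These relations were also computed within each genotype. Mybpc2 and Casq1 passed by both measures in the 33 nTG hearts, with an r of 0.595 (permutation p 0.00091, adjusted 0.0136) and a rho of 0.671 (p 9e-05, adjusted 0.00135). In the 31 TG hearts they passed by r, at 0.528 (permutation p 0.00415, adjusted 0.0207; 0.407 without 2 libraries), but not by rho, at 0.445 (p 0.0161, adjusted 0.0668). Mybpc2 and Acta1 passed in TG hearts, with an r of 0.604 (permutation p 0.00074, adjusted 0.0111; 0.494 without 2 libraries) and a rho of 0.610 (p 0.00048, adjusted 0.0072). In nTG hearts they did not, with an r of 0.408 (permutation p 0.0329, adjusted 0.165) and a rho of 0.272 (p 0.144, adjusted 0.539). Myl1 and Acta1 likewise passed in TG hearts, with an r of 0.605 (permutation p 0.00158, adjusted 0.0118; 0.457 without 2 libraries) and a rho of 0.542 (p 0.00326, adjusted 0.0244), and did not in nTG hearts, with 0.290 (p 0.11, adjusted 0.329) and 0.182 (p 0.333, adjusted 0.744). Myl1 and Mybpc2 in TG hearts had an r of 0.537 (permutation p 0.00859, adjusted 0.0322; 0.384 without 2 libraries) and a rho of 0.435 that did not pass (p 0.0223, adjusted 0.0668). In nTG hearts the same pair had 0.087 (permutation p 0.621, adjusted 0.923) and 0.099 (p 0.601, adjusted 0.82). The difference between genotypes was not tested. Marker sums of other cell types varied with some of the genes: over the 64 libraries, with the group means removed, the 5 fibroblast markers had an r of 0.578 with Acta1, 0.498 with Myl1, 0.467 with Mybpc2 and 0.135 with Casq1. The sum of the 5 atrial markers in the table had an r of 0.326 to 0.431 with these 4 genes. That of the cardiomyocyte markers had an r of -0.489 with Acta1, -0.393 with Myl1, -0.267 with Mybpc2 and -0.073 with Casq1. For these 4 genes the r was between -0.071 and 0.409 with smooth muscle, between -0.254 and 0.356 with endothelial and between -0.035 and 0.184 with blood markers. Of the 3 brown fat markers, Ucp1 and Elovl3 have no row in the table, and Cidea, at 9.94 to 19.3 CPM, had an r of 0.454 with Mybpc2, 0.381 with Casq1, 0.171 with Acta1 and -0.027 with Myl1. The median fibroblast sum was also higher in TG hearts, at 1220 against 786.2 CPM in sedentary males, 888.4 against 742.9 in trained males, 1133 against 913.6 in sedentary females and 1016 against 767.6 in trained females. The median atrial sum was higher in TG hearts in 3 of the 4 comparisons, at 237.7 against 121.4 CPM in sedentary males, 190.9 against 101.2 in sedentary females and 167.5 against 102.1 in trained females, and was 141.5 in TG against 159.4 in nTG trained males. The median blood sum was lower in TG hearts, at 546.9 against 588.9 CPM in sedentary males, 384.0 against 933.6 in trained males, 386.1 against 609.8 in sedentary females and 411.6 against 688.0 in trained females. The part of these cells in the levels of the 6 genes was not tested. Library totals had an r between -0.06 and 0.13 with the 6 genes.

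**Figure D5:**
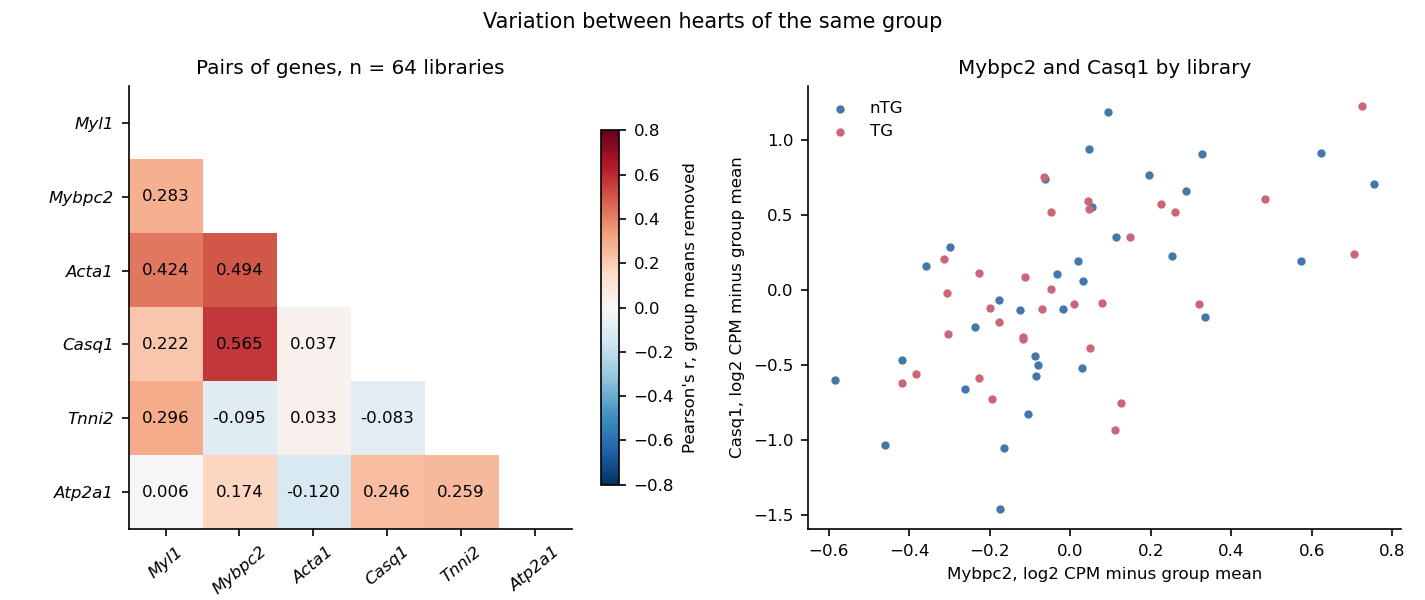
Left, Pearson's r between the 6 genes over 64 libraries after the mean of each group was removed (red positive, blue negative); right, log2 CPM of Mybpc2 and Casq1 minus the group mean, 1 point per library (blue nTG, red TG). The highest r is 0.565, for Mybpc2 and Casq1, and points of both genotypes spread along the same diagonal.

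Among TG hearts, the level of Tnnt2 was compared with each of the 6 genes. Mybpc2 was lower where Tnnt2 was higher, with an r of -0.545 and rho of -0.525 over 31 libraries (permutation p 0.00353 and 0.00427, adjusted 0.0212 and 0.0256 over 6 relations). The r was -0.396 without the 2 libraries farthest from the median of Mybpc2. For the other 5 genes the r was between -0.341 and 0.306 and did not pass (permutation p 0.082 to 0.712, adjusted 0.225 to 0.712). The Tnnt2 counts include the endogenous gene and any transgene reads that match it.

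By a rule of likeness, the 3 genes closest to each of the 6 after removal of group means were named, over 64 libraries that share their depth and scaling. Closest to Mybpc2 were Fstl3 (r 0.780), Nrap, an anchoring protein of the developing myofibril (0.777), and Masp1 (0.699). Closest to Acta1 were Nlrc3 (0.774), Ankrd23, a titin-binding ankyrin repeat protein (0.759), and Tbx15, a transcription factor of skeletal muscle (0.759). Closest to Myl1 were Pla1a (0.637), Grb10 (0.621) and Bin1 (0.598), and closest to Casq1 were Lmntd1 (0.682), Cacna1g (0.679) and Cacna2d2 (0.626). Tnni2 had Rcl1 (0.454), Mbd1 (0.444) and Dera (0.441), and Atp2a1 had Rgma (0.607), Sema6c (0.574) and Foxo6 (0.544). Over the 8 group means, the mean of Myl1, Mybpc2, Acta1 and Casq1 was matched most closely by Prkag3 (0.995), a muscle subunit of AMP-activated kinase, Medag (0.993) and Epdr1 (0.984). Of all tested genes these were picked for their likeness, so their values are a description.

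Other skeletal muscle genes were followed from lists. These lists and those below were chosen with earlier results of these data known, so their p-values are not independent support. Of 18 further fast skeletal muscle genes, 4 had a row in the table, and they did not share 1 direction. In sedentary males 2 of the 4 were higher and 1 lower in TG hearts, in trained females likewise, and none was called in trained males or sedentary females. Of all genes, 9.39% were called higher and 11.2% lower in sedentary males and 5.37% and 9.43% in trained females, against 5.65% and 8.31% in males after training and 1.58% and 2.78% in females kept sedentary. The median log2 fold change of the 4 genes was 0.56 in sedentary and 0.138 in trained males, and 0.319 and 0.405 in sedentary and trained females. Ryr1, the calcium release channel of skeletal muscle, was at 3.43 to 5.84 CPM in sedentary nTG males (median 3.84) and at 3.84 to 29.5 CPM in sedentary TG males (median 9.64), which is 1.56 ± 0.29 on the log2 scale (SE, edgeR adjusted p 7.09e-05). Cacnb1, a subunit of the skeletal calcium channel, was higher by 0.61 ± 0.12 (adjusted p 0.000122), with 7.79 to 10.2 CPM in nTG and 11.3 to 17.1 CPM in TG males. Cacna1s, the pore of the same channel, was lower by -0.85 ± 0.13 (adjusted p 4.17e-06), with at least 19.1 CPM in nTG (median 20.3) and at most 14.7 CPM in TG males (median 12.9). In trained females the values were 0.95 ± 0.29 for Ryr1 (adjusted p 0.0168), 0.34 ± 0.12 for Cacnb1 (0.0461, not called in 12 of 16 fits without 1 library) and -0.57 ± 0.14 for Cacna1s (0.00341). In TG males after training, Ryr1 was lower by -0.83 ± 0.27 (adjusted p 0.0269) and Cacnb1 by -0.37 ± 0.11 (0.0197), where 7.60% of all genes were called lower. These calls were lost in 4 of 17 fits without 1 library for Ryr1 and in 2 of 17 for Cacnb1. Of 12 slow and embryonic skeletal muscle genes, 4 had a row, and none was called in these comparisons.

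Factors of the skeletal muscle lineage were higher in TG hearts in part. Of 18 listed, 8 had a row, and 3 were called higher and 1 lower in males of either training state. In females 2 were called higher when sedentary, and 2 higher and 1 lower when trained. The shares of all genes called higher were 9.39% and 5.65% in sedentary and trained males and 1.58% and 5.37% in sedentary and trained females, and those called lower 11.2%, 8.31%, 2.78% and 9.43%. Vgll2, a co-factor of TEAD proteins that is made in skeletal muscle, was higher in all 4 comparisons. It was at 1.27 to 3.34 CPM in sedentary nTG males (median 2.15) and at 3.61 to 22.4 CPM in sedentary TG males (median 11.1), with no overlap. Its log2 fold change there was 2.31 ± 0.31 (SE, edgeR adjusted p 2.17e-07), and it was 1.48 ± 0.30 after training (0.000393). Females had 1.38 ± 0.30 when sedentary and 1.19 ± 0.30 when trained (adjusted p 0.0022 and 0.00363). After training, Vgll2 was lower in TG males by -0.90 ± 0.28 (adjusted p 0.0185), from a median of 11.1 to 4.92 CPM, and the call was lost without sedentary TG male replicate 4 or trained TG male replicate 7. Tbx15 was higher by 1.94 ± 0.34 in sedentary males (adjusted p 2.53e-05), 1.36 ± 0.34 in sedentary females (0.00883) and 1.45 ± 0.34 in trained females (0.00206). In trained males its value was 0.92 ± 0.33 (0.0473), a call lost in 9 of 16 fits without 1 library. Six4 was higher by 0.31 ± 0.07 in sedentary males (adjusted p 0.00173) and by 0.25 ± 0.07 in trained males (0.0132). Eya3 was slightly lower, at -0.11 ± 0.04, -0.15 ± 0.04 and -0.13 ± 0.04 in sedentary males, trained males and trained females (edgeR adjusted p 0.0406, 0.00842 and 0.028), and the first of these calls was lost in 11 of 16 fits without 1 library, the last in 4 of 16.

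Regulators of muscle isoform genes changed little in size. Of 17, all in the table, 2 were called higher and 5 lower in sedentary males, and 1 and 4 in trained males. In females 1 and 1 were called when sedentary, and 1 and 5 when trained. Of all genes 9.39% were called higher and 11.2% lower in sedentary males, 5.65% and 8.31% in trained males, 1.58% and 2.78% in sedentary females and 5.37% and 9.43% in trained females. Mrtfb, a co-activator of SRF, was higher in all 4 comparisons, by 0.34 ± 0.04, 0.22 ± 0.04, 0.33 ± 0.04 and 0.23 ± 0.04 (SE, edgeR adjusted p 1.89e-08, 0.000128, 1.05e-07 and 8.46e-05). Myocd, another SRF co-activator, was lower in all 4, by -0.27 ± 0.07, -0.32 ± 0.07, -0.28 ± 0.07 and -0.33 ± 0.07 (adjusted p 0.00221, 0.00068, 0.00691 and 0.000727). Smyd1, a methyltransferase of striated muscle, was lower in sedentary males, trained males and trained females, by -0.20 ± 0.05, -0.16 ± 0.05 and -0.24 ± 0.05 (edgeR adjusted p 0.00104, 0.0138 and 0.000356), the second call being lost without trained nTG male replicate 5. Hdac9 and Hdac5, histone deacetylases that repress MEF2 factors, were lower by -0.24 ± 0.06 in sedentary males (edgeR adjusted p 0.00281) and by -0.24 ± 0.06 in trained females (0.0013), respectively. Hdac5 was also called lower in sedentary males. Mef2d, a MEF2 factor, was lower in trained males by -0.25 ± 0.07 (adjusted p 0.00472). After training Smyd1 was higher in nTG females by 0.19 ± 0.04 (adjusted p 0.0494), a call that held in only 4 of 18 fits without 1 library. In TG males after training, 2 of the 17 were called higher and 3 lower, where 10.3% of all genes were higher and 7.60% lower. Mef2d was lower by -0.23 ± 0.06 (adjusted p 0.00888), while Mef2a and Mef2c were higher by 0.17 ± 0.05 (0.0111) and 0.15 ± 0.05 (0.021, lost in 5 of 17 fits without 1 library). Mrtfa, a further SRF co-activator, was lower by -0.20 ± 0.07 (adjusted p 0.0338, lost in 8 of 17 such fits).

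Cardiac stress genes, of which 11 of 12 had a row, were higher in sedentary TG males only in part. Myh7 was at 421 to 665 CPM in sedentary nTG males (median 549) and at 525 to 3840 CPM in sedentary TG males (median 1800), which is 1.72 ± 0.38 on the log2 scale (SE, edgeR adjusted p 0.00063). Ankrd1 was higher by 0.75 ± 0.20 (adjusted p 0.00321) and Xirp2 by 0.42 ± 0.10 (0.00128) in these hearts. In that comparison 9.39% of all genes were called higher. Of the 11, none was called in sedentary females, where 1.58% of all genes were higher and 2.78% lower, and Csrp3 and Xirp1 were lower in trained males and trained females, by -0.15 to -0.18, where 8.31% and 9.43% of all genes were lower. In trained males these 2 calls were lost in 5 and 7 of 16 fits without 1 library, and in trained females each was lost in 2 of 16, that of Xirp1 also with the replicate number as a block (the highest adjusted p over the alternatives was 0.0522). Of the other 5 actins, Acta2, Actg2 and Actb were not called in any comparison of genotypes, and Actg1 was higher in trained females by 0.25 ± 0.08 (edgeR adjusted p 0.0319, not called in 8 of 16 fits without 1 library).

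Between the sexes, few of the list genes were called. In sedentary TG hearts, where 3.83% of all genes passed, females were lower than males in Cacnb1 by -0.50 ± 0.11 (SE, edgeR adjusted p 0.00636) and higher in Sox6, a transcription factor of muscle fibre type, by 0.30 ± 0.07 (0.00412), and both calls held in each of 17 fits without 1 library. Myh7 was lower by -1.35 ± 0.36 (adjusted p 0.0207, lost in 3 of 17 such fits), Myl3 by -0.19 ± 0.06 (0.0327, lost in 6) and Vgll2 by -0.92 ± 0.28 (0.0442, held in only 5). In sedentary nTG hearts Mybpc3 was lower in females by -0.20 ± 0.06 (edgeR adjusted p 0.0312, held in 6 of 15 fits without 1 library), where 2.22% of all genes passed. In trained nTG hearts Acta2, the smooth muscle actin, was higher in females by 0.76 ± 0.22 (edgeR adjusted p 0.0474, held in 6 of 18 such fits), where 2.40% passed.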

How the data were processed

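Hearts were profiled by bulk RNA sequencing. The deposited gene table holds raw counts, and the deposited lncRNA table holds estimated counts, used here only to match columns. Per the submitters' processing notes, tools included cutadapt 2.3, STAR 2.7.8a and RSEM 1.3.3, with GRCm38 (mm10). Each lncRNA column, named by library, took the gene column with the highest Pearson's r of centred log2 CPM (pseudocount 0.5) over 388 autosomal transcripts with a mean of at least 20 counts. GENCODE M21 gave symbols for 16887 of 16913 identifiers.

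Counts were fitted with edgeR 4.0.16 (TMM, quasi-likelihood, 1 mean per group, Benjamini-Hochberg adjusted p under 0.05), and filterByExpr kept all genes. Correlations used log2 CPM (prior count 2) with 100000 permutations within groups, so 1e-05 is the smallest p they can give. Ratios used exact permutation tests over samples. DESeq2 1.42.0, limma 3.58.1 voom with sample quality weights, other scaling, fewer groups, replicate blocks, leaving out single libraries and columns by name were tried.

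The 6 genes and all lists were chosen with earlier results of these data known. Named are the 6 genes, their counterparts, the called list genes (at most 4 per list and comparison, by p) and the nearest genes by likeness. Genotype, training and sex comparisons share groups. Libraries are separate mice, since the labels call the replicates biological. Errors and p-values measure the spread between hearts.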

Additional observations from a re-analysis of the deposited data

Results flagged for a closer look

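Of 48 sets of values (6 genes in 8 groups), 7 had a single highest library that stood apart from the rest of its group by Dixon's criterion at 95%. For normally distributed, independent values about 2.4 would do so. The values were CPM without a log, which can stretch the high end, so no excess over chance is read from the 7. Trained TG male replicate 4 stood apart in 2 of them, with Myl1 at 83.7 CPM against 26.7 to 43.3 CPM in the others and Acta1 at 688.8 CPM against 135.3 to 336.8 CPM. Sedentary nTG female replicate 1 had Myl1 at 22.7 CPM, against 5.42 to 12.3 CPM in the others. Sedentary TG male replicate 4 had Mybpc2 at 92.3 CPM, against 44.9 to 60.3 CPM. Trained nTG female replicate 2 had Acta1 at 352.5 CPM, against 83.7 to 181.4 CPM. Atp2a1 stood apart in sedentary TG female replicate 4, at 2.96 CPM against 0.336 to 1.19 CPM, and in sedentary nTG female replicate 4, at 6.02 CPM against 0.424 to 1.25 CPM.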

How the results depend on the processing

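The largest effect was that of the column assignment. With gene columns taken by their own name, the genotype difference in trained males was -0.45 for Myl1, -0.12 for Mybpc2, 0.10 for Casq1, -0.22 for Tnni2 and 0.87 for Atp2a1, and in trained females 0.063 for Myl1, -0.077 for Mybpc2, -0.13 for Acta1, -0.10 for Casq1, -0.044 for Tnni2 and -0.31 for Atp2a1. In sedentary males it was 1.15 for Myl1, 0.58 for Mybpc2 and 0.68 for Atp2a1, and in sedentary females 0.87 for Myl1. By name, training called 2 genes in nTG males, Myl1 at 2.08 and Mybpc2 at 1.11 (adjusted p 0.0246 and 0.0288), and 1 in nTG females, Mybpc2 at 1.02 (0.0349), while 6 isoform ratios and 7 correlations passed. Among list genes, differences of opposite sign by name, none of them called, were Actg1 -0.074, Cacnb1 -0.057, Csrp3 0.001 and Ryr1 -0.17 in trained females, Csrp3 0.052, Eya3 0.025, Mef2d 0.10, Mrtfb -0.082, Mybpc3 0.072, Myl3 0.06, Myocd 0.20, Six4 -0.02, Tbx15 -0.068, Tnnc1 0.038 and Xirp1 0.031 in trained males, Mybpc3 0.062 in sedentary males and Tnnc1 0.012 in sedentary females, and, for training, Cacnb1 0.14, Mrtfa 0.023, Ryr1 0.36 and Vgll2 0.70 in TG males and Smyd1 -0.15 in nTG females, and, between sexes, Mybpc3 0.11 in sedentary nTG hearts. With the joined columns, limma voom with sample quality weights called 1 gene in TG males after training (Acta1) and DESeq2 1 between sedentary TG females and males (Atp2a1, adjusted p 0.0493), and 1 correlation passed in nTG hearts alone. Leaving out 1 library gave 0 to 1 called genes in the training comparison of TG males and in the sex comparisons of sedentary nTG, trained nTG and sedentary TG hearts, and 0 in the others. All 384 genotype differences of the 6 genes without 1 library stayed within 1 SD (between libraries of a group) of the value given. Leaving out 1 library can hardly move a group mean that far, so this does not measure how firm the values are. The sign changed in 3 of them, for Acta1 in trained males (-0.22 and -0.04) and for Atp2a1 in sedentary females (0.36). Same-numbered libraries of different groups had a median r of 0.01 (205 pairs), so the replicate numbers do not pair the hearts. With the number as a replicate block 0 of the 6 genes were called in each of the 14 comparisons, and Acta1 in TG males was at -0.79 (adjusted p 0.0806). The filter on low counts removed nothing, so dropping it changed no value. Over the calls of list genes and the alternatives other than leaving out 1 library, the call held in 454 cases. It was lost in 92, and the sign changed in 23. With the joined columns, at least 1 alternative lost the genotype call of Actc1, Actg1, Cacnb1, Eya3 and Xirp1 in trained females. The same held for Csrp3, Tbx15 and Xirp1 in trained males, Atp2a2, Mybpc3 and Tnnc1 in sedentary females, and Eya3 in sedentary males. For training it held for Mef2c in TG males and Smyd1 in nTG females, and between sexes for Acta2, Mybpc3, Myh7 and Vgll2. Depth limits Tnni2 and Atp2a1, with medians of 28 and 36 counts. The cause of the differences between tools was not tested.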
